A study of Mus musculus with 6 samples.

Results

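Cyp2a and Cyp2b enzymes are cytochrome P450 proteins of the liver endoplasmic reticulum. They were followed here together with Por, which makes the P450 oxidoreductase, in livers of mice fed DDC and injected with recombinant human cytoglobin (rhCYGB). The members were taken by gene symbol: Cyp2a5, Cyp2a4, Cyp2a12, Cyp2a22, Cyp2b10, Cyp2b9, Cyp2b13 and Por, which are 8 of the 24532 genes in the deposited table. All 8 were among the 14415 genes with enough counts to be tested.

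The study compared 3 livers of mice on DDC that received rhCYGB with 3 livers of mice on DDC that received vehicle. All 6 mice were wild-type C57BL/6, and the sources used here give neither age nor sex. Every mouse ate food with 0.1% DDC (3,5-diethoxycarbonyl-1,4-dihydrocollidine), a porphyria-inducing compound that blocks the last step of heme synthesis and injures bile ducts. The diet lasted 4 weeks. Injections were given during its final 2 weeks, 2 per week, of rhCYGB (2 mg/kg) in the treated mice and of normal saline as vehicle in the controls. The final injection preceded killing by 2 days. No group without DDC was analysed here, so the values show rhCYGB against vehicle in injured liver only. Each library is 1 animal with its own number in the labels, and replicate numbers follow the order of deposition and pair no animals. In such bulk RNA, fewer cells of a type and less RNA per cell cannot be told apart.

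Cytochrome P450 enzymes carry heme and insert oxygen into steroids, drugs and toxins, using electrons that Por passes on from NADPH. In mouse hepatocytes the Cyp2a and Cyp2b genes are known for their inducibility. Cyp2b10 is the classical target of the nuclear receptor CAR (gene Nr1i3) after phenobarbital, Cyp2a5 responds to many kinds of liver injury and porphyrinogenic agents, and Cyp2a4, Cyp2b9 and Cyp2b13 are known as female-predominant genes. Recombinant human cytoglobin is the protein of a globin that hepatic stellate cells make.

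The libraries did not fall cleanly into the 2 groups. Total estimated counts ran from 58422095 to 72431373. On the first principal component of log2 CPM, rhCYGB replicates 2 and 3 had scores of 55.3 and 95.5. The score of rhCYGB replicate 1 was -43.5, inside the vehicle range of -68.0 to -15.1. Library scaling was also uneven, with TMM factors of 1.18, 0.74 and 0.63 in rhCYGB replicates 1 to 3 and 1.45, 1.07 and 1.18 in vehicle replicates 1 to 3. CPM values are divided by these factors, so the scaling raises rhCYGB replicates 2 and 3. TPM, which uses no such factor, is given beside CPM for the members. The slope of centred log2 CPM on log2 transcript length was 0.21, -0.31 and -0.29 in rhCYGB replicates 1 to 3 and 0.35, -0.016 and 0.05 in vehicle replicates 1 to 3, so long transcripts were relatively low in rhCYGB replicates 2 and 3. With this trend removed the log2 fold change was 2.37 for Cyp2a5, 2.52 for Cyp2b10 and 1.66 for Por. The hepatocyte markers summed to 138850 to 278244 CPM with rhCYGB and 98022 to 168492 CPM with vehicle, with 12 of 12 higher and 0 at an unadjusted p under 0.05. Their part in the results below was not tested.

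Both Cyp2a and Cyp2b genes had higher mean CPM with rhCYGB, most of all Cyp2a5 and Cyp2b10, and so did Por. All 8 fold changes were above 0, against 46.8% of all genes tested, and the median log2 fold change was 1.40 against -0.06 for all genes. By edgeR's quasi-likelihood test 0 of the 8 passed a Benjamini-Hochberg adjusted p of 0.05, as did 0% of all genes, and the adjusted p was 0.523 for each member except Cyp2b13 (0.927). Before adjustment 6 members had p under 0.05, each higher with rhCYGB. Of all genes 8.12% had such a p, and 6.06% had one and were higher. The log2 fold change was 1 or more for 6 members and for 8.9% of all genes. The groups did not overlap in CPM for 5 members, all higher, where 6.02% of all genes were so. In TPM, 3 members (Cyp2a5, Cyp2a12 and Por) had groups apart with rhCYGB higher and 0 with rhCYGB lower. Of all genes 1.33% were apart with rhCYGB higher and 12.7% with rhCYGB lower on that scale, where the median of all genes was shifted by -0.51 (log2(TPM + 1)). These counts describe the members and do not test them as a set.

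**Figure D1:**
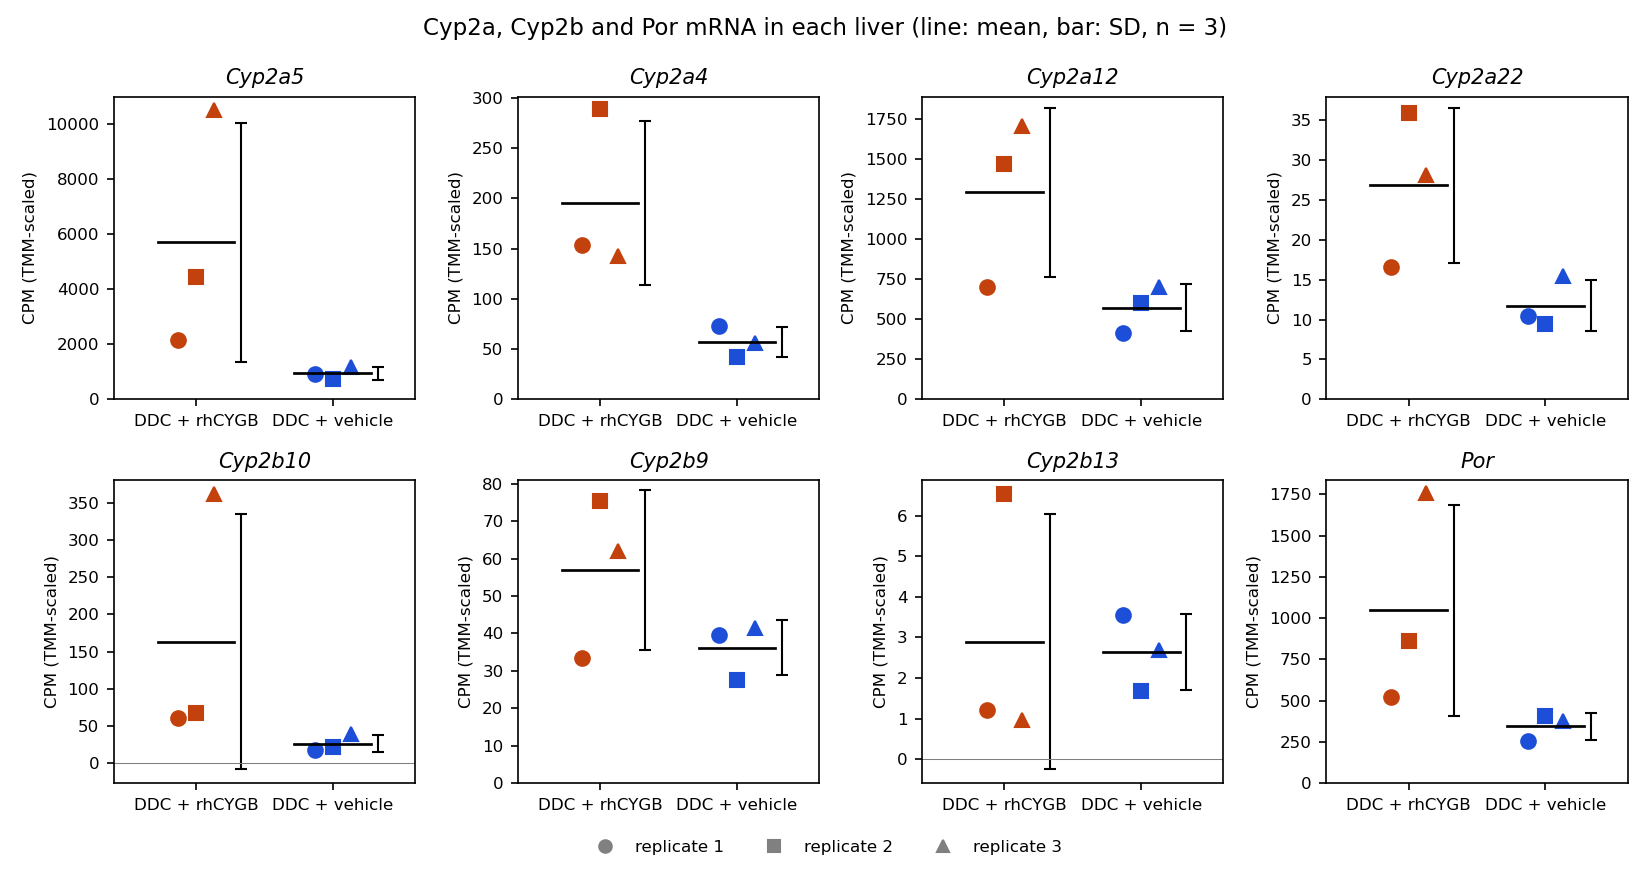
Each panel plots TMM-scaled CPM of 1 gene, linear axis, for the 3 DDC + rhCYGB livers (left) and the 3 DDC + vehicle livers (right). The horizontal line is the mean and the bar beside it is the SD. Cyp2a5, Cyp2b10 and Por are highest in rhCYGB replicate 3, whereas Cyp2a4, Cyp2a22, Cyp2b9 and Cyp2b13 are highest in rhCYGB replicate 2.

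Cyp2a5 (gene 13087, transcript of 1715 bases, mm10 chr7:26835339-26843264) makes the mouse enzyme that hydroxylates coumarin and nicotine. Its level was 2139, 4446 and 10522 CPM in rhCYGB livers and 914, 731 and 1176 CPM in vehicle livers. Every rhCYGB liver was above every vehicle liver, and rhCYGB replicate 3 stood far above the other rhCYGB livers. The means were 5702 ± 4330.2 CPM with rhCYGB and 940.3 ± 224 CPM with vehicle (SD, n = 3 each). On the log2 scale the fold change was 2.60 (SE 0.64, unadjusted p = 0.00449 by edgeR). Without rhCYGB replicate 3 it was 1.81 and without rhCYGB replicate 1 it was 2.99. Per length and without TMM factors, Cyp2a5 had 2693, 2783 and 5634 TPM with rhCYGB and 1497, 755 and 1372 TPM with vehicle, a ratio of means of 3.07. By TPM it was among the most abundant mRNAs, at rank 43, 41 and 21 in rhCYGB livers and rank 72, 183 and 79 in vehicle livers.

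Cyp2a4 (gene 13086, transcript of 1715 bases, chr7:26307192-26315088) makes a testosterone-hydroxylating enzyme that differs from Cyp2a5 at few residues. It was counted at 154, 289 and 143 CPM with rhCYGB and at 72.9, 42.4 and 55.6 CPM with vehicle, so the groups did not overlap. The log2 fold change was 1.78 (SE 0.38, unadjusted p = 0.00207 by edgeR), the smallest p among the members, at rank 12 of all genes tested. In TPM the groups overlapped, at 194, 181 and 76.6 TPM with rhCYGB and 119, 43.8 and 64.8 TPM with vehicle.

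The paralogs are so alike that their upstream sequences are shown together. The RefSeq windows on GRCm38.p6 cover the 250 bases before the start site, which matched the start in the authors' table for all 8 members. Cyp2a5 (chr7:26835089-26835338, plus strand) and Cyp2a4 (chr7:26306942-26307191, plus strand) aligned with 245 identical bases, 4 mismatches and an offset at the window ends, 97.6% identity. Capitals mark the mismatched bases.
Cyp2a5: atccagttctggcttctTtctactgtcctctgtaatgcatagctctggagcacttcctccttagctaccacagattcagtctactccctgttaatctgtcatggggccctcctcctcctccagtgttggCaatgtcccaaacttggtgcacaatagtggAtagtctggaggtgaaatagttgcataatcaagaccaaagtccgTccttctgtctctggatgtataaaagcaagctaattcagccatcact
Cyp2a4: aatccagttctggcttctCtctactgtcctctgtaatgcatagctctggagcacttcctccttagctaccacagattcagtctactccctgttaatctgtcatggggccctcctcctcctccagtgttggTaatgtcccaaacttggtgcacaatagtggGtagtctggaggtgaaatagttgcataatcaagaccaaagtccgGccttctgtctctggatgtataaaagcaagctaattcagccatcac
Cyp2a12 and Cyp2a22 were 82.8% identical to each other over the same window, and Cyp2a5 and Cyp2a12 49.8%.

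The transcripts of these pairs also share stretches that short reads cannot tell apart. Against all GENCODE M21 transcripts of other genes, 40.8% of the 50-base windows of the Cyp2a5 transcript and 38.0% of those of Cyp2a4 recurred in another gene, and 14.4% and 11.2% of their 100-base windows did. The others in question were each other and the pseudogene Cyp2a21-ps. For Cyp2a12 and Cyp2a22 the shares of 50-base windows were 27.5% and 25.7%, each with the other gene of the pair, and Por had 0%. Reads from these stretches may be shared, and how the authors' pipeline divided them is not given in the sources used here. A sum over a pair does not depend on that division within the pair. The summed Cyp2a4 and Cyp2a5 counts gave 2293, 4737 and 10665 CPM with rhCYGB and 987, 773 and 1231 CPM with vehicle, a log2 fold change of 2.56 (SE 0.63, unadjusted p = 0.00421 and adjusted p = 0.523 by edgeR). Without rhCYGB replicate 3 it was 1.82.

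The ratio of Cyp2a5 to Cyp2a4 counts within a library, which no library scaling touches, singled out 1 liver. It was 13.9, 15.4 and 73.6 in rhCYGB livers and 12.5, 17.2 and 21.2 in vehicle livers. Apart from rhCYGB replicate 3 the ratios of both groups lay in the same range. Like the other ratios between paralogs, this ratio depends on how shared reads were divided, which is not given in the sources used here. The mean log2 ratio was 0.59 higher with rhCYGB (exact two-sided permutation p = 0.8, adjusted p = 0.8 over 6 ratios), and without rhCYGB replicate 3 it was lower by 0.18 (a difference of -0.18). With 3 livers against 3 the smallest p such a test can give is 0.1.

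Cyp2a12 (gene 13085, transcript of 1664 bases, chr7:27029090-27036815) hydroxylates steroids and bile acids. It had 697, 1468 and 1706 CPM in rhCYGB livers and 411, 598 and 700 CPM in vehicle livers. The rhCYGB replicate 1 value lay just inside the vehicle range. Its log2 fold change was 1.18 (SE 0.44, unadjusted p = 0.0309 by edgeR). In TPM the same gene was at 905, 947 and 941 with rhCYGB and 694, 637 and 841 with vehicle, a ratio of means of 1.29 with groups apart. Relative to its mean, its TPM varied least among the rhCYGB livers of all members.

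Cyp2a22 (gene 233005, transcript of 2226 bases, chr7:26931631-26939386) had 16.6, 35.9 and 28.1 CPM with rhCYGB and 10.4, 9.41 and 15.5 CPM with vehicle. Groups did not overlap, with a margin of about 1 CPM between rhCYGB replicate 1 and vehicle replicate 3. On the log2 scale the fold change was 1.19 (SE 0.36, unadjusted p = 0.0124 by edgeR), and its TPM values overlapped between the groups, at 11.6 to 17.3 with rhCYGB and 7.48 to 13.9 with vehicle. The ratio of Cyp2a22 to Cyp2a12 counts was 0.0238, 0.0244 and 0.0165 with rhCYGB and 0.0253, 0.0157 and 0.0221 with vehicle (exact permutation p = 0.8, adjusted p = 0.8 over 6 ratios). The sum of this pair had a log2 fold change of 1.18 (SE 0.44, unadjusted p = 0.0306 and adjusted p = 0.523 by edgeR).

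Cyp2b10 (gene 13088, transcript of 1878 bases, chr7:25897658-25926624) is the phenobarbital-inducible P450 of mouse liver. Its values were 61.1, 68.2 and 362 CPM in rhCYGB livers and 17.8, 21.9 and 39.4 CPM in vehicle livers. The groups did not overlap, and rhCYGB replicate 3 stood far above the other rhCYGB livers. The means were 164 ± 171 CPM with rhCYGB and 26.4 ± 11.5 CPM with vehicle (SD, n = 3 each), so the SD with rhCYGB exceeded the mean. The log2 fold change was 2.63 (SE 0.77, unadjusted p = 0.0102 by edgeR) and was 1.29 without rhCYGB replicate 3. Per length the level was 70.2, 39.0 and 177 TPM with rhCYGB and 26.6, 20.7 and 41.9 TPM with vehicle, and rhCYGB replicate 2 lay below vehicle replicate 3, so the groups overlap.

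Cyp2b9 (gene 13094, transcript of 1877 bases, chr7:26173409-26210660), a female-predominant testosterone hydroxylase, overlapped between the groups. It had 33.5, 75.4 and 62.1 CPM with rhCYGB and 39.7, 27.7 and 41.4 CPM with vehicle. On the log2 scale the fold change was 0.65 (SE 0.35, unadjusted p = 0.103 by edgeR). Its direction depends on the scaling, since on log2(TPM + 1) the difference was -0.14, with a shift of -0.51 in the median of all genes on that scale. In TPM it averaged 37.4 ± 6.44 with rhCYGB and 43.2 ± 16.6 with vehicle (SD, n = 3 each).

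Cyp2b13 (gene 13089, transcript of 1876 bases, chr7:26061495-26096196), another female-predominant gene, was the least abundant member. It had 1.21, 6.53 and 0.956 CPM in rhCYGB livers, from 93, 352 and 36 estimated counts, and 3.55, 1.67 and 2.68 CPM in vehicle livers, from 300, 118 and 188. Values with rhCYGB lay on both sides of all vehicle values. The log2 fold change was 0.14 (SE 0.76, unadjusted p = 0.86 by edgeR), and without rhCYGB replicate 2 it was -1.28. On log2(TPM + 1) it was -0.64.

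The upstream windows show how the Cyp2b genes relate. Cyp2b9 (chr7:26173159-26173408) and Cyp2b13 (chr7:26061245-26061494) matched at 248 of 250 bases, with the 2 mismatches in capitals, whereas Cyp2b10 (chr7:25897408-25897657) was 70.0% identical to either. All lie on the plus strand. In Cyp2b10 the capitals mark a match to the C/EBP-type motif TTGCNNAA.
Cyp2b10: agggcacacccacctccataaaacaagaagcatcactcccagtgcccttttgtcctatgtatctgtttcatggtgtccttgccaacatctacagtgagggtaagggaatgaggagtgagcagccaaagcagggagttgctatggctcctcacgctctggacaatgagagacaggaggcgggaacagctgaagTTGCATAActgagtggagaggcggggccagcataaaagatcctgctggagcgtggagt
Cyp2b9: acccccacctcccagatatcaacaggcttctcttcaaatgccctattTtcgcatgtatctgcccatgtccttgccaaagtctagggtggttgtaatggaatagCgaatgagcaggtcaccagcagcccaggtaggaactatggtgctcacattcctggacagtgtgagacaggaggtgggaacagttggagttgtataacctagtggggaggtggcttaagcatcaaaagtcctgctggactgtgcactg
Cyp2b13: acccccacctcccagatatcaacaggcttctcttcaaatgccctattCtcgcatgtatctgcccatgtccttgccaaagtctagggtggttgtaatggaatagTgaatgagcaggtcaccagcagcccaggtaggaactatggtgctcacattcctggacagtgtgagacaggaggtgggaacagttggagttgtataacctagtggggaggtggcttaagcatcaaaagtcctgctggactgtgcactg
Their transcripts also share stretches, with 9.7%, 11.2% and 27.3% of 50-base windows of Cyp2b10, Cyp2b9 and Cyp2b13 found in another gene, including one another and the predicted gene Gm45225, and 0%, 1.2% and 9.3% of 100-base windows.

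Short motifs were looked up on both strands of these 250-base windows and of all 32851 windows in the table. TTGCNNAA, bound by factors such as C/EBP, was present in 5 of the 8 members and in 9.6% of all windows. The match TTGCATAA began 71 and 70 bases before the start site in Cyp2a5 and Cyp2a4 and 58 bases before it in Cyp2b10, and TTGCCAAA 180 bases before it in Cyp2b9 and Cyp2b13. TATAAA was found in the 4 Cyp2a members and in 12.4% of all windows. The nuclear receptor half-site AGGTCA was present in Cyp2b9 and Cyp2b13 and in 14.0% of windows. Neither TTCNNNGAA, a STAT motif found in 7.0% of windows, nor TGACNNNGC, the antioxidant response element core found in 10.2%, occurred in a member. A match is a description of letters only, and near-identical windows (Cyp2a5 with Cyp2a4, Cyp2b9 with Cyp2b13) do not give separate matches.

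Cyp2b10 counts exceeded Cyp2b9 counts in 2 of 3 rhCYGB livers and in 0 of 3 vehicle livers. The ratio was 1.82, 0.905 and 5.82 with rhCYGB and 0.448, 0.791 and 0.952 with vehicle, so rhCYGB replicate 2 lay within the vehicle range. The mean log2 ratio differed by 1.61 (exact two-sided permutation p = 0.2, adjusted p = 0.4 over 6 ratios), by 0.88 without rhCYGB replicate 3 and by 2.23 without rhCYGB replicate 2. For Cyp2b13 over Cyp2b9 the ratio was 0.0361, 0.0866 and 0.0154 with rhCYGB and 0.0894, 0.0605 and 0.0648 with vehicle, a mean log2 difference of -0.95 (exact permutation p = 0.3, adjusted p = 0.45), or -0.33 without rhCYGB replicate 3 and -1.58 without rhCYGB replicate 2. Summed, the Cyp2b members had 95.8, 150 and 425 CPM with rhCYGB and 61.1, 51.3 and 83.4 CPM with vehicle, with a log2 fold change of 1.78 (SE 0.57, unadjusted p = 0.0159 and adjusted p = 0.523 by edgeR). That of the sum was 0.91 without rhCYGB replicate 3.

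**Figure D2:**
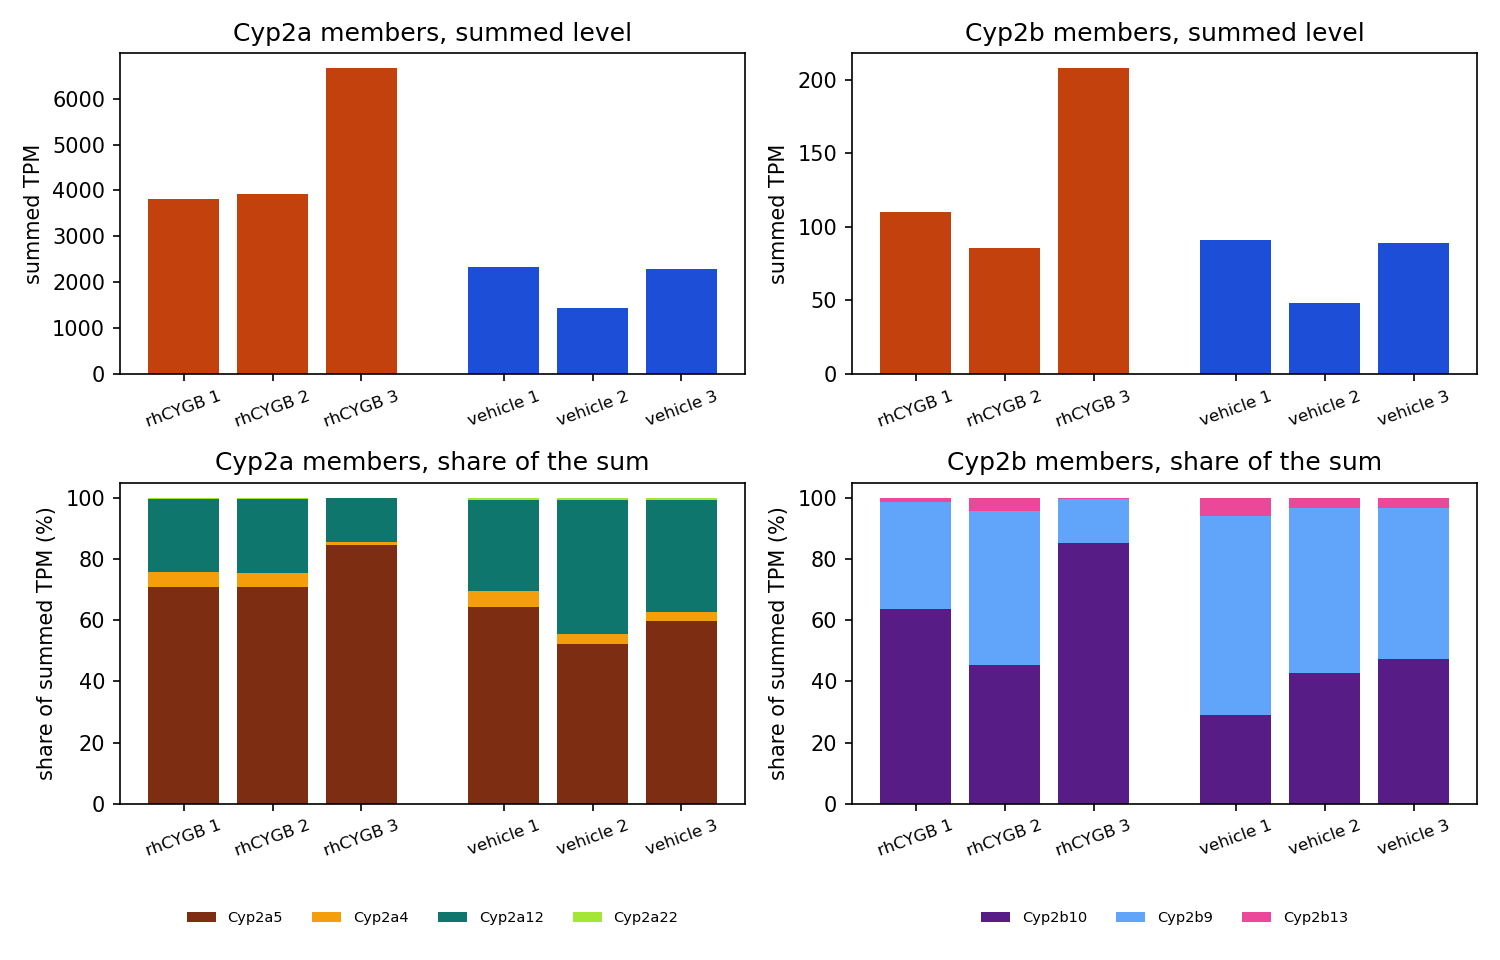
The upper panels plot the summed TPM of the Cyp2a members (left) and Cyp2b members (right) in each liver, and the lower panels the share of each member in that sum in percent. Each bar is 1 liver, rhCYGB at the left of vehicle. Cyp2a5 takes 70.7% to 84.6% of the Cyp2a sum with rhCYGB and 52.3% to 64.4% with vehicle, and the Cyp2b10 share of the Cyp2b sum runs from 45.4% to 85.1% with rhCYGB and from 29.2% to 47.2% with vehicle.

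The makeup of each family also differed between livers. Cyp2a members together reached 3807, 3928 and 6663 TPM with rhCYGB and 2324, 1443 and 2292 TPM with vehicle, without overlap. Cyp2a5 made up 70.7%, 70.8% and 84.6% of that sum with rhCYGB and 64.4%, 52.3% and 59.9% with vehicle, also without overlap. The Cyp2a12 share was 23.8%, 24.1% and 14.1% with rhCYGB and 29.9%, 44.1% and 36.7% with vehicle. Such shares also depend on how reads shared by paralogs were divided. The Cyp2b sum was far smaller, at 110, 85.8 and 208 TPM with rhCYGB and 91.3, 48.4 and 88.9 TPM with vehicle, and rhCYGB replicate 2 lay inside the vehicle range.

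Ordered by mean TPM, the rhCYGB livers had Cyp2a5 at 3703 ± 1673, Cyp2a12 at 930.98 ± 23.1, Por at 483 ± 141, Cyp2a4 at 150 ± 64.2, Cyp2b10 at 95.3 ± 72.3, Cyp2b9 at 37.4 ± 6.44, Cyp2a22 at 14.99 ± 3.01 and Cyp2b13 at 1.86 ± 1.68 (SD, n = 3). The vehicle livers had the same order except that Cyp2b9 came before Cyp2b10. Their means were 1208 ± 397 TPM for Cyp2a5, 724 ± 105 for Cyp2a12, 288 ± 9.01 for Por, 76.0 ± 39.0 for Cyp2a4, 43.2 ± 16.6 for Cyp2b9, 29.7 ± 10.97 for Cyp2b10, 11.5 ± 3.50 for Cyp2a22 and 3.25 ± 1.90 for Cyp2b13. Neighbours whose values overlapped were Cyp2a4 with Cyp2b10 and Cyp2b10 with Cyp2b9 in rhCYGB livers, and Cyp2a5 with Cyp2a12, Cyp2a4 with Cyp2b9 and Cyp2b9 with Cyp2b10 in vehicle livers.

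Por (gene 18984, transcript of 2527 bases, chr5:135689145-135735326) supplies electrons to all microsomal P450 enzymes and lies on another chromosome than the rest. It was at 519, 862 and 1759 CPM in rhCYGB livers and 252, 408 and 377 CPM in vehicle livers. The groups did not overlap. Its order of the rhCYGB livers was that of Cyp2a5 in CPM but not in TPM, where Por was lowest in rhCYGB replicate 2 among them. On the log2 scale the fold change was 1.599 (SE 0.51, unadjusted p = 0.0154 by edgeR), and 0.9994 without rhCYGB replicate 3. Por had 444, 366 and 639 TPM with rhCYGB and 281, 286 and 298 TPM with vehicle, again apart, with a ratio of means of 1.68. Cyp2a5 counts per Por count were 4.12, 5.16 and 5.98 with rhCYGB and 3.62, 1.79 and 3.12 with vehicle. That ratio kept the groups apart, with a mean log2 difference of 0.88 (exact two-sided permutation p = 0.1, the smallest the design allows, adjusted p = 0.4 over 6 ratios). Cyp2b10 per Por overlapped, at 0.118, 0.0791 and 0.206 with rhCYGB and 0.0705, 0.0537 and 0.105 with vehicle. The mean log2 difference was 0.76 (exact permutation p = 0.2, adjusted p = 0.4), and 0.39 without rhCYGB replicate 3.

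How many members pass a threshold depended on 1 library and on the test. Without rhCYGB replicate 1, edgeR called 7 of the 8 members higher (Cyp2b13 was not called, adjusted p = 0.615), but 12.7% of all genes were then called higher and 23.2% called in all. Their adjusted p ran from 0.0212 for Cyp2a5 to 0.0374 for Cyp2b9. The log2 fold changes were then 2.99 for Cyp2a5, 1.92 for Cyp2a4, 1.47 for Cyp2a12, 1.44 for Cyp2a22, 3.02 for Cyp2b10, 0.92 for Cyp2b9, 0.51 for Cyp2b13 and 1.918 for Por. For the sums they were 2.94 (Cyp2a4 and Cyp2a5), 1.47 (Cyp2a12 and Cyp2a22) and 2.13 (the Cyp2b members). DESeq2 on all 6 libraries called Cyp2a5 (adjusted p = 0.00147), Cyp2a4 (0.0016), Cyp2b10 (0.0182) and Por (0.0478), where it called 3.05% of the 1836 genes left by its own filtering, and 3% as higher. It gave Cyp2a12 an adjusted p of 0.0908 and gave Cyp2a22, Cyp2b9 and Cyp2b13 none. Limma-voom with sample quality weights called 7 members higher, all but Cyp2b13, beside 16.1% of all genes called higher and 30% called in all.

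**Figure D3:**
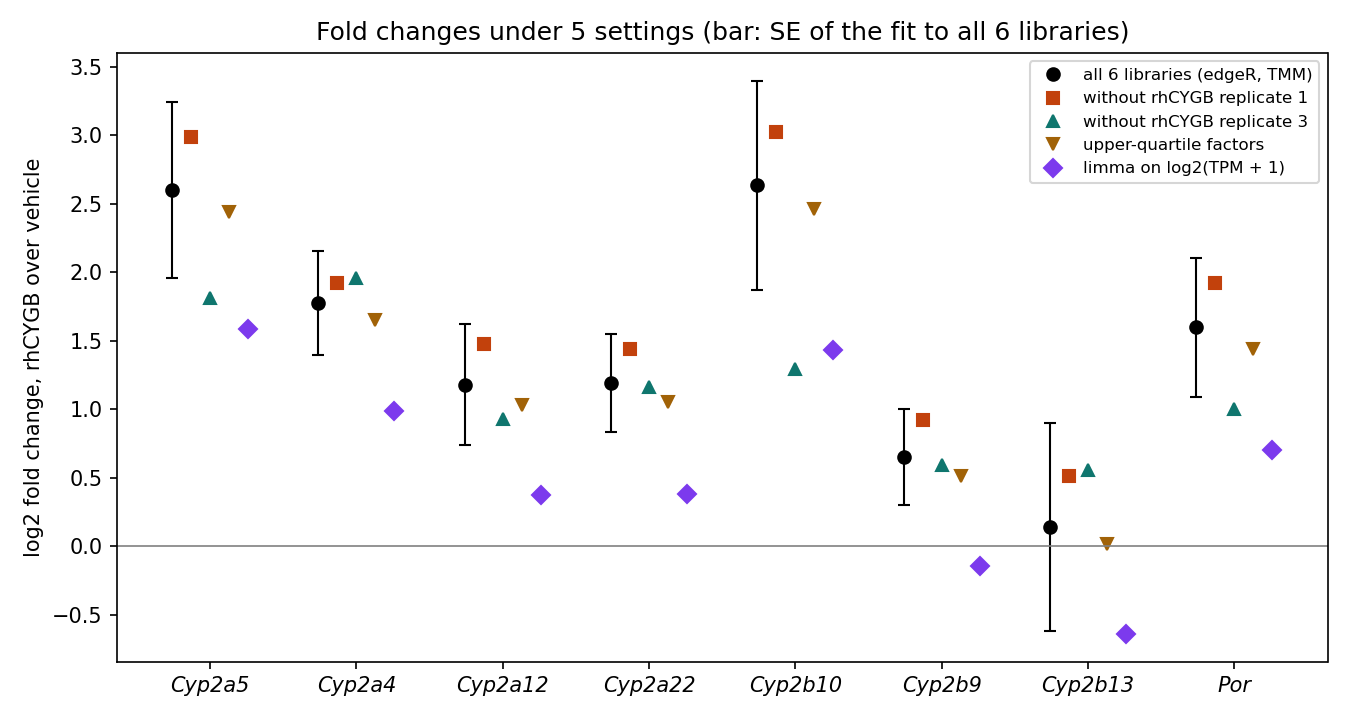
Log2 fold changes of rhCYGB over vehicle for the 8 members are plotted under 5 settings, with the SE for the fit to all 6 libraries. Circles are edgeR with TMM factors. Cyp2a5 lies between 1.59 and 2.99 and Cyp2b10 between 1.29 and 3.02 in these settings, whereas Cyp2b9 and Cyp2b13 fall below 0 on log2(TPM + 1).

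The 7 Cyp2a and Cyp2b members lie in 1 region of chromosome 7, and most other genes there had no counts. From the start of Cyp2b10 to the end of Cyp2a12 (chr7:25897658-27036815, 1139 kb) the table lists 15 genes, of which 8 had enough counts. Apart from the members this was only Cyp2g1, a P450 best known from olfactory tissue, and the other 7 were at 0 CPM in all 6 livers. It had 2.84, 4.84 and 9.35 CPM with rhCYGB and 1.06, 2.65 and 1.65 CPM with vehicle (log2 fold change 1.66, SE 0.55, unadjusted p = 0.0184 and adjusted p = 0.523 by edgeR). The groups were apart by less than 1 CPM.

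Of the 7 further Cyp2 genes listed for the cluster, 3 were tested and 0 passed. Cyp2f2, a periportal P450 that lies just past the region, had 626, 370 and 259 CPM with rhCYGB and 143, 399 and 453 CPM with vehicle, with overlapping groups and a log2 fold change of 0.34 (SE 0.53). Among rhCYGB livers its order was the reverse of that of Cyp2a5. Cyp2s1 was at 1.02, 2.25 and 2.12 CPM with rhCYGB and 0.615, 1.59 and 1.63 CPM with vehicle. Cyp2ab1, listed with them, lies on chromosome 16 in the table.

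**Figure D4:**
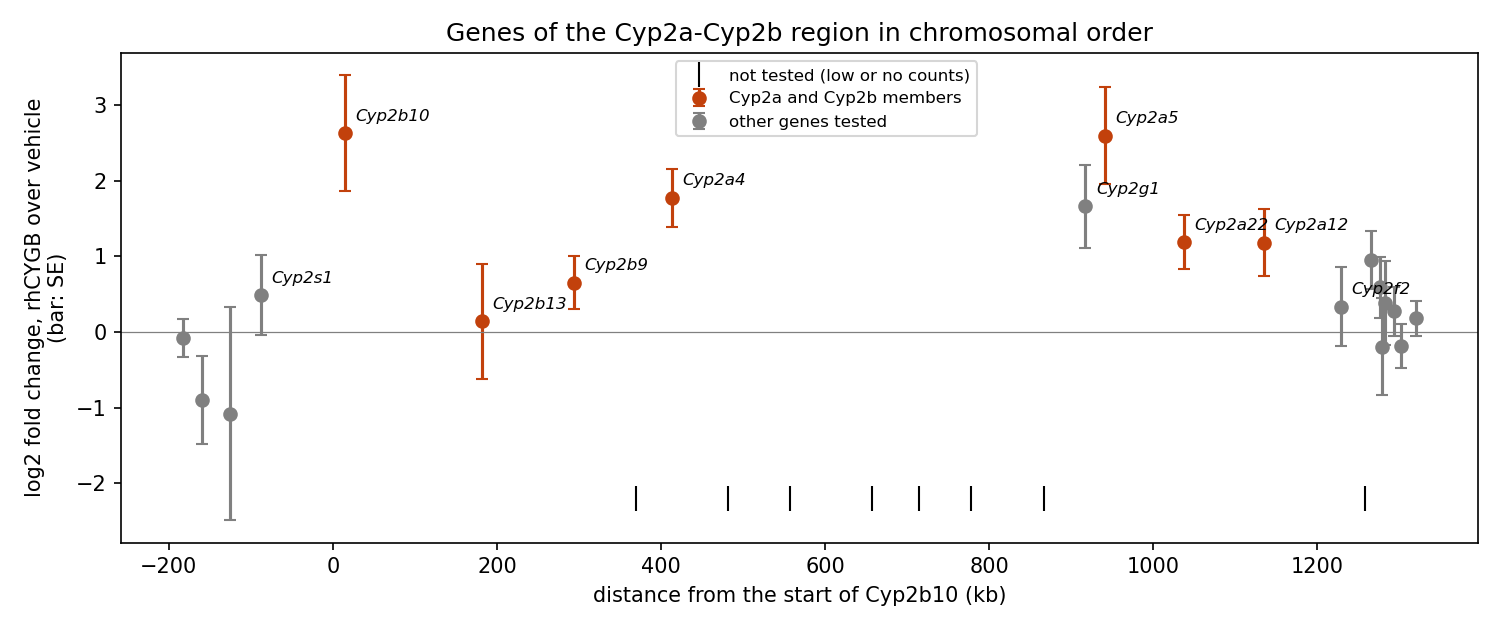
Log2 fold changes of rhCYGB over vehicle, with SE, are plotted against the distance of each gene's middle from the start of Cyp2b10 in kb. Ticks near the bottom are genes with too few counts to test. The members lie among ticks, with Cyp2b10 (2.63) at the start of the region, Cyp2a5 (2.60) before Cyp2a22 and Cyp2a12 in its last stretch, and Cyp2b13 (0.14) and Cyp2b9 (0.65) next to Cyp2b10.

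Among 15 regulators and redox partners of these enzymes 0 passed by edgeR. An unadjusted p under 0.05 was found for 2, both higher, where 6.06% of all genes were so. The list median was 0.33 against -0.06 for all genes. In CPM the groups were apart for 5 with rhCYGB higher and for 1 with rhCYGB lower. Of all 14415 genes, 868 and 1064 were so. On the TPM scale, not given for this list, 1.33% of all genes were apart with rhCYGB higher. Nr1i3, which encodes CAR, had 50.7, 207 and 279 CPM with rhCYGB and 44.1, 37.9 and 45.7 CPM with vehicle (log2 fold change 2.07, SE 0.58, unadjusted p = 0.00816 and adjusted p = 0.523 by edgeR). The groups were apart, but rhCYGB replicate 1 was close to the vehicle livers. Ppargc1a, a coactivator of fasting and energy metabolism, had 11.5, 9.17 and 26.3 CPM with rhCYGB and 6.70, 4.14 and 6.10 CPM with vehicle (log2 fold change 1.47, SE 0.46, unadjusted p = 0.0137 by edgeR).

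The partners of CAR and the hepatocyte factors had smaller differences. Hnf4a, the master factor of hepatocytes, was at 472 to 996 CPM with rhCYGB and 334 to 409 CPM with vehicle. Rxra, the dimer partner of CAR, was at 274 to 499 CPM with rhCYGB and 182 to 251 CPM with vehicle. Nr1i2, which encodes the xenobiotic receptor PXR, was at 86.0 to 95.5 CPM with rhCYGB and 52.1 to 74.2 CPM with vehicle. In these 3 genes the groups did not overlap in CPM, with edgeR unadjusted p-values of 0.0714, 0.0704 and 0.0662. Of all genes 6.02% were apart with rhCYGB higher on that scale.

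Nfe2l2, which encodes the stress factor NRF2, was the list's gene with groups apart in the other direction, at 119, 61.0 and 51.3 CPM with rhCYGB and 120, 121 and 143 CPM with vehicle (log2 fold change -0.73, SE 0.36, unadjusted p = 0.0801 by edgeR). Its inhibitor Keap1 overlapped, at 56.2 to 76.3 CPM with rhCYGB and 46.8 to 62.4 CPM with vehicle. Cebpa, a factor of hepatocyte differentiation, had 222, 88.5 and 89.8 CPM with rhCYGB and 141, 220 and 172 CPM with vehicle, so rhCYGB replicate 1 lay at the top and the other rhCYGB livers at the bottom. Ahr, Ppara and Foxa2 overlapped, with log2 fold changes from -0.24 (Foxa2) to 0.39 (Ahr).

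The other redox partners gave no common pattern with Por. Cyb5a, the microsomal cytochrome b5 that helps P450 reactions, had 796, 1726 and 1654 CPM with rhCYGB and 590, 880 and 914 CPM with vehicle, overlapping. Cyb5r3, its reductase, was at 416 to 565 CPM with rhCYGB and 272 to 492 CPM with vehicle, and Cyb5b, the mitochondrial form, at 235 to 412 CPM with rhCYGB and 313 to 376 CPM with vehicle. Their log2 fold changes were 0.81, 0.33 and -0.17.

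**Figure D5:**
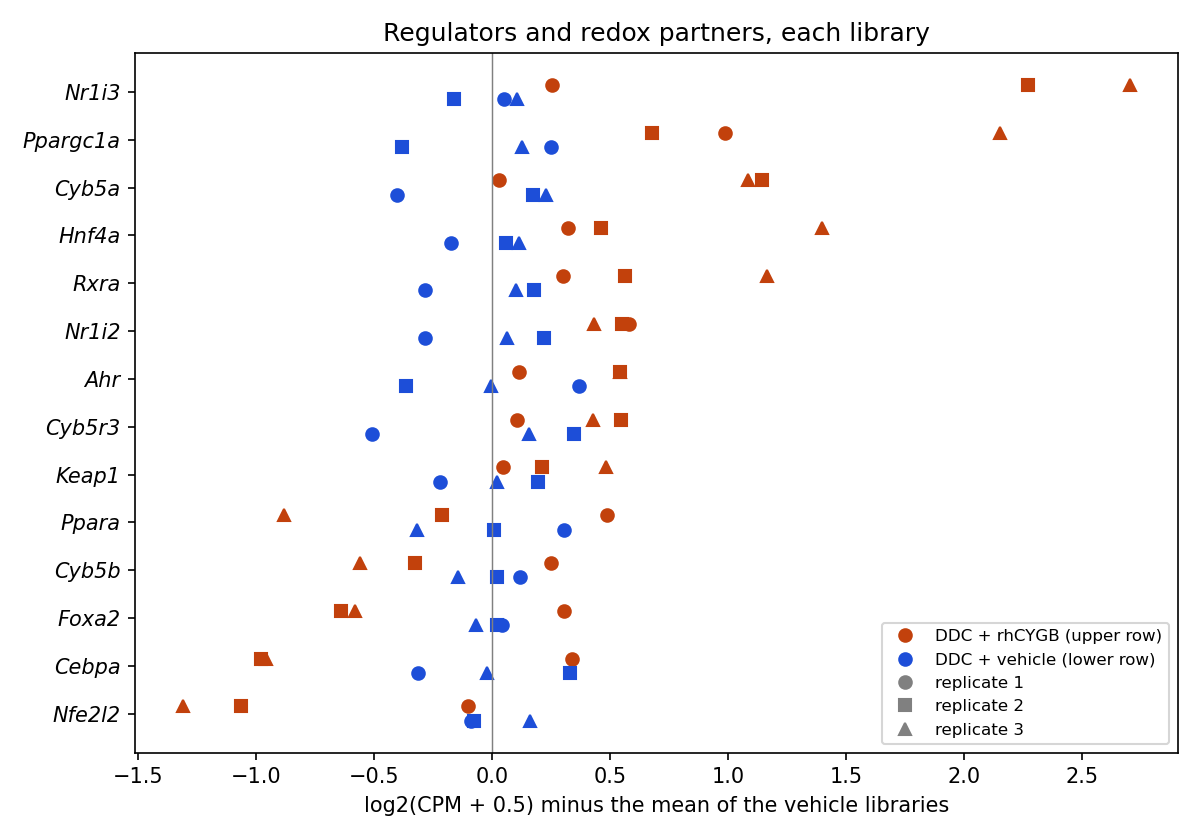
For each regulator or redox partner named here, points give log2(CPM + 0.5) of every liver minus the mean of the 3 vehicle livers, rhCYGB in the upper row of each gene and vehicle in the lower. Nr1i3 and Ppargc1a lie farthest to the right, and Nfe2l2 and Cebpa farthest to the left in rhCYGB replicates 2 and 3.

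CAR and PXR target genes were mostly higher. Of 27 listed and tested, 24 had a log2 fold change above 0, against 46.8% of all genes. The list median was 0.78, beside 0.73 for the hepatocyte markers and -0.06 for all genes. Before adjustment 9 had p under 0.05, each of them higher, where 6.06% of all genes were so, but 0 passed by edgeR. The most abundant were Gstm1, a glutathione transferase, at 6893, 12223 and 10176 CPM with rhCYGB and 3004, 3360 and 5005 CPM with vehicle, Cyp3a11, a drug-metabolizing P450, at 7740, 5296 and 4321 CPM with rhCYGB and 3365, 5824 and 6022 CPM with vehicle, and Gstm3 at 4666, 3967 and 1858 CPM with rhCYGB and 1550, 1696 and 2649 CPM with vehicle. Of these, Gstm1 kept the groups apart and the others overlapped. NRF2 target genes had a median of -0.04, with 8 of 17 above 0. The 5 with an unadjusted p under 0.05 were Gpx2, Nqo1, Cbr3, Gstm2 and Gsta1, all higher and named after their values were seen. Gsta1, the most abundant, had 584, 882 and 320 CPM with rhCYGB and 207, 228 and 365 CPM with vehicle.

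Because Cyp2a4, Cyp2b9 and Cyp2b13 are female-predominant, sex-linked lists were set beside them. The Y-linked genes Ddx3y, Eif2s3y, Kdm5d and Uty summed to 53.0 to 95.5 CPM with rhCYGB and 62.3 to 94.7 CPM with vehicle, and Xist, the transcript of the inactive X, was at 0 CPM in 5 livers and 0.0355 CPM in vehicle replicate 1. Of 18 female-biased genes tested, members left out, 13 had a fold change above 0, against 46.8% of all genes. The list median was 1.48, and 0 were called by edgeR. Before adjustment 10 had p under 0.05, each of them higher, where 6.06% of all genes were so. Cyp4a14 and Cyp4a10, omega-hydroxylases of fatty acids, had 175, 436 and 956 CPM and 72.9, 235 and 804 CPM with rhCYGB, and 45.6, 46.6 and 94.4 CPM and 22.1, 31.7 and 50.5 CPM with vehicle. In CPM both genes ordered the rhCYGB livers as Cyp2a5 did, an order in which TMM scaling also raises these libraries. The female-predominant members, in contrast, were highest in rhCYGB replicate 2. That peak depends on the scaling. In TPM, Cyp2a4 was highest in rhCYGB replicate 1 (194), and Cyp2b9 (59.4) and Cyp2b13 (5.31) in vehicle replicate 1. Male-biased genes had a median of 0.01, with 9 of 18 above 0. Growth hormone and sex regulators had a median of 0.38, with 10 of 14 above 0 and 1 at an unadjusted p under 0.05. That gene was Socs2, an inhibitor of growth hormone signalling, named after its value was seen, at 44.6, 47.9 and 90.8 CPM with rhCYGB and 18.0, 23.6 and 14.9 CPM with vehicle.

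Cyp2a5 is known from the pericentral zone of the lobule. Of 10 pericentral markers 8 had a fold change above 0, against 46.8% of all genes. The list median was 1.22, and 0 were called by edgeR. The summed level of these markers was 1512, 3333 and 6844 CPM with rhCYGB and 1304, 1852 and 1733 CPM with vehicle. In CPM this was the order of rhCYGB livers seen for Cyp2a5 and Por. The TMM factors of rhCYGB replicates 1 to 3 (1.18, 0.74 and 0.63) raise CPM in that same order. Cyp2e1, the ethanol-inducible P450 and the most abundant of them, had 711, 1843 and 4179 CPM with rhCYGB and 542, 850 and 773 CPM with vehicle, overlapping. The markers below 0, named after their values were seen, were Lgr5 (log2 fold change -0.77) and Axin2 (-0.32). Lgr5 was the only marker of the list with groups apart, at 0.951 to 1.69 CPM with rhCYGB and 1.74 to 2.79 CPM with vehicle.

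Non-hepatocyte markers varied between the same libraries, and their part in the member values was not tested. Bile duct markers summed to 210 to 607 CPM with rhCYGB and 968 to 1082 CPM with vehicle, with 5 of 7 below 0. Most of that sum was Spp1, at 542, 299 and 113 CPM with rhCYGB and 975, 892 and 897 CPM with vehicle. The 2 bile duct markers above 0 were the keratins Krt19 and Krt7 (log2 fold changes 0.62 and 0.41), both with overlapping groups. Krt19 had 13.4, 39.5 and 42.3 CPM with rhCYGB and 19.1, 22.4 and 20.5 CPM with vehicle. Stellate cell and myofibroblast markers summed to 466, 526 and 142 CPM with rhCYGB and 751, 810 and 680 CPM with vehicle, with 7 of 8 below 0. Macrophage markers summed to 1229 to 2301 CPM with rhCYGB and 1282 to 2258 CPM with vehicle, and endothelial markers to 49.9 to 104 CPM with rhCYGB and 71.5 to 100.3 CPM with vehicle. Lymphocyte markers summed to 2.098 to 10.5 CPM with rhCYGB and 5.76 to 27.3 CPM with vehicle, over the 4 of 6 that were tested. The highest sum of each group was mostly Ptprc, a gene of leukocytes in general, at 9.06 CPM in rhCYGB replicate 1 and 26.4 CPM in vehicle replicate 1. The log2 fold changes of Cd3e, Nkg7 and Cd8a were -0.04, 0.20 and 0.08, with overlapping groups. No marker in these lists was at 0 in all 6 livers.

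Genes with the profile most like a member over the 6 livers were found by the root mean square difference of centred log2 CPM among 11899 genes, as a description over 6 points. For Cyp2a5 these were Nrg4 and Cyp4a14 (0.32 each), and Gfra1, Plin5 and Slco1a4 (0.34 each). Slco1a4, an uptake transporter, was also nearest to Cyp2b10 (0.32), at 109, 164 and 562 CPM with rhCYGB and 50.6, 59.5 and 74.1 CPM with vehicle. Next to Cyp2b10 came Got1, Bmper, Timp4 and Sftpa1 (0.37 to 0.39), which share the high value in rhCYGB replicate 3. Por was closest to Selenbp1 (0.13), followed by Cyp3a13, Cyp2g1, Hamp2 and Ahcy (0.14 to 0.16). For Cyp2b9 the nearest were Il1r2, Fbln2, Ankrd39, Hspb7 and Tcn2 (0.11 to 0.17). TMM scaling of the libraries enters all of these profiles.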

How the data were processed

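mRNA libraries of 6 livers were made with a stranded kit and sequenced from both ends, per the labels' protocols. The build was mm10, and StringTie 1.3.4d, HISAT2 2.1.0 and FastQC 0.11.7 are named, per the submitters' processing notes, with settings and strand option not given in the sources used here. The authors deposited an estimated count and an FPKM value for each gene and transcript, with 1 transcript for every member. The deposited counts were FPKM times length times a constant per library, so they are expected counts. No per-sample column was left unused (0). TPM was computed here from the deposited FPKM, divided by its sum over genes in each library and scaled to a common total.

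The main test was the quasi-likelihood F test of edgeR 4.0.16 (R 4.3.3) on these counts after filterByExpr and TMM scaling. P-values were adjusted over 14415 genes by Benjamini-Hochberg, with 0.05 as threshold. The transcript table was fitted likewise over 19664 transcripts, where 0 were called. SE is the fold change over the square root of F. Paralog sums replaced their members in a fit of their own. Ratios within libraries were compared by an exact permutation test. DESeq2 1.42.0, limma 3.58.1, other scalings, filters and leaving out libraries were alternatives. Replicate spread limits precision, and counting error was not estimated.

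Members, lists and tests were chosen with earlier results of these data known. Genes named were all members, list genes past the threshold filled up to 3 by mean CPM, the regulators, and the 5 nearest profiles of Cyp2a5, Cyp2b10, Cyp2b9 and Por among genes of at least 1 CPM, predicted genes left out. Some list genes are counted but not reported here by name. Motifs and sequence windows used Biopython 1.88, RefSeq windows on GRCm38.p6 and GENCODE M21 transcripts. mm10 and GRCm38 share chromosome coordinates.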

Additional observations from a re-analysis of the deposited data

How the results depend on the processing

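No paired analysis was possible because replicate numbers follow only the order of deposition. No gene, member or transcript passed by edgeR with DESeq2 size factors, upper-quartile factors, no filter, at least 1 CPM in 3 libraries or an adjusted p of 0.1. The same held for genes and members with the length trend removed, by limma-voom without sample weights and on log2(TPM + 1) or log2(TPM + 0.1). DESeq2 called 56 genes, 4 members, 2 paralog sums, 10 genes of the lists, 318 transcripts and 3 member transcripts. Limma-voom with sample quality weights called 4323 genes, 7 members, 3 paralog sums and 68 list genes. The cause of these differences between tests was not tested. With 1 library left out, calls ran from 0 to 3391 genes, 0 to 7 members, 0 to 3 paralog sums, 0 to 55 list genes, 0 to 958 transcripts and 0 to 1 member transcripts, and every highest value was without rhCYGB replicate 1. Chosen after seeing the data, the members higher at an unadjusted p under 0.05 were 4 to 7 with 1 library left out (6 with all), and those with groups apart 5 to 7 (5 with all), highest without rhCYGB replicate 1, where 20.8% and 29.8% of all genes were so. With all libraries these shares of all genes were 6.06% and 6.02%. Leaving out any other library, they were 1.16% to 2.42% and 7.03% to 9.4%.

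Cyp2a5, Cyp2a4, Cyp2a12, Cyp2a22, Cyp2b10 and Por kept a fold change above 0 in all 16 alternatives that gave one, with lowest log2 values of 1.59, 0.98, 0.37, 0.38, 1.29 and 0.70. Cyp2b9 fell below 0 on log2(TPM + 1) (-0.14) and log2(TPM + 0.1) (-0.15). Cyp2b13 did so with the length trend removed (-0.081), on log2(TPM + 1) (-0.64) and log2(TPM + 0.1) (-1.02), by limma-voom without sample weights (-0.34) and without rhCYGB replicate 2 (-1.28) or vehicle replicate 2 (-0.093), and ran from -1.28 to 0.56 with 1 library left out. The median of all genes was -0.51 and -0.75 on the TPM scales, -0.18 with upper-quartile factors, and from -0.13 to 0.0098 with 1 library left out. With 1 library left out the log2 difference ran from -0.18 to 1.02 for Cyp2a5 over Cyp2a4 and from -0.16 to 0.22 for Cyp2a22 over Cyp2a12.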
